A study of Mus musculus with 6 samples.

Results

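The 9 transcription factors that set the identity of the intestinal epithelium, Cdx1, Cdx2, Hnf4a, Hnf4g, Gata4, Gata6, Klf4, Klf5 and Sox9, were followed in single nuclei of mouse intestinal organoids. They were chosen by name, and all 9 were found among the 31319 genes counted. The organoids were grown from jejunal crypts of C57BL/6 mice that were 8 to 12 weeks old, and no genetic change is given for them. Freshly passaged crypts were exposed to medium conditioned by mouse embryonic fibroblasts (MEFs). In the control group the MEFs were quiescent after serum deprivation (quiescent conditioned medium, QCM), and in the other group they were senescent (senescent conditioned medium, SCM). The study made MEFs senescent with X-rays or with doxorubicin, and which of these gave the medium for the nuclei is not given in the sources used here, nor is the time in the medium. There were 3 samples of each medium, 6 in all, and the study's methods state in general that a replicate stands for a mouse unless noted otherwise. For these nuclei the labels do not name the mice, so the p-values measure the spread between these samples. The question was whether the factors that hold intestinal identity differed in level between the media, in all nuclei or within the 15 clusters of nuclei that the authors deposited.

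CDX proteins are homeobox factors that place the epithelium along the gut and hold it apart from stomach. HNF4 proteins are nuclear receptors that open enhancers of absorptive cells together with CDX and GATA proteins, and Gata4 marks the proximal small intestine whereas Gata6 is present along its whole length. Klf5 is known from dividing crypt cells, Klf4 from cells that have left the cycle and from goblet cells, and Sox9 from the crypt base, Paneth cells and tuft cells.

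In the GENCODE annotation of GRCm38, Cdx2 lies on chromosome 5 (147300805 to 147307270, minus strand), Hnf4a on chromosome 2 (163506808 to 163572910, plus strand) and Hnf4g on chromosome 3 (3508030 to 3658052, plus strand). Gata4 and Klf5 lie on chromosome 14 (63198922 to 63271692, minus strand, and 99298691 to 99315036, plus strand), Klf4 on chromosome 4 (55527143 to 55532466, minus strand) and Sox9 on chromosome 11 (112782224 to 112787760, plus strand). The places and promoters of Cdx1 and Gata6 are not reported here. Of the other members, Cdx2, Hnf4a and Klf4 had a promoter in the RefSeq table for GRCm38.p6. The promoters of Cdx2, the member with the lowest unadjusted p-values within clusters, and of Klf4, the member with the widest range between clusters, are shown from 5′ to 3′ on the strand of the gene, with the bases before the annotated exon.

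Cdx2 (chr5:147307271-147307499, minus strand): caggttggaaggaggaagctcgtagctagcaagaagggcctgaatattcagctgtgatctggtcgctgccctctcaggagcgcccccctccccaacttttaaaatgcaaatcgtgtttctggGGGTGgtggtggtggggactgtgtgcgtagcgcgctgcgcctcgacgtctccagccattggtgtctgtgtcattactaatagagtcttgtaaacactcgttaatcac

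Klf4 (chr4:55532476-55532725, minus strand): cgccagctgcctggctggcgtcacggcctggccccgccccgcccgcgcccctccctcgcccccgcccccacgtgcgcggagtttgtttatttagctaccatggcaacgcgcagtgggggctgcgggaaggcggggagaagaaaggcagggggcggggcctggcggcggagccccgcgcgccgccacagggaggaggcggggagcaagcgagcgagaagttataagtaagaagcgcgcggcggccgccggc

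The capitals mark a match to a short KLF motif, CACCC, read on either strand. In the 250 bases before the start, Cdx2 held 1 match to it and Klf4 held 0, and 52% of the 32851 promoters in the table held it at least 1 time. The upstream start of Hnf4a had 3 matches to the KLF motif and 1 to the GATA motif AGATAA, which 9.99% of promoters held, and its other start had 5 KLF matches. None of these 4 windows held the CDX motif TTTATG (10.8% of promoters) or the HNF4 motif CAAAGT (12.6% of promoters). These are matches of letters and not measured sites.

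The files held 38154 nuclei. QCM samples had 3791 to 10144 nuclei and 19925280 to 41035733 UMIs, and SCM samples had 430 to 10833 nuclei and 4071926 to 26799890 UMIs. A UMI is a molecular tag that is counted 1 time for each captured transcript. SCM replicate 1 stood apart, with 430 nuclei, of which 176 carried a barcode that was also in another library. It shared 175 barcodes with QCM replicate 1, whereas the other pairs of libraries shared 0 to 36. In SCM replicate 1, 7 very deep nuclei of cluster 14 held 32.2% of the UMIs, against 0.0167% to 6.22% in the other samples. The nuclei were epithelial in every sample: 9 epithelial markers summed to 3229 to 5099 CPM (counts of a gene per 1000000 UMIs of the sample), and the fibroblast, muscle, endothelial, immune and neural lists each stayed at or under 12.5 CPM, with the defining markers Col1a1, Cdh5, Ptprc and Sox10 under 1 CPM in all samples.

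None of the 9 factors differed between the media beyond the spread of the samples when all nuclei of a sample were summed. The edgeR quasi-likelihood test called 0 of 9 at an adjusted p under 0.05, as it called 0% of the 19046 genes tested. At an unadjusted p under 0.05 it had 0 of 9 members against 4.55% of all genes (866 genes), and the samples of the media overlapped for all 9, whereas they did not overlap for 7.08% of all genes. The estimate was higher in SCM for 4 members and lower for 5, where 51.4% of all genes were lower. The median log2 ratio of SCM to QCM was -0.039 over the members and -0.012 over all genes tested. A change in the number of cells that make a transcript and a change in the transcript per cell cannot be told apart in these sums.

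**Figure D1:**
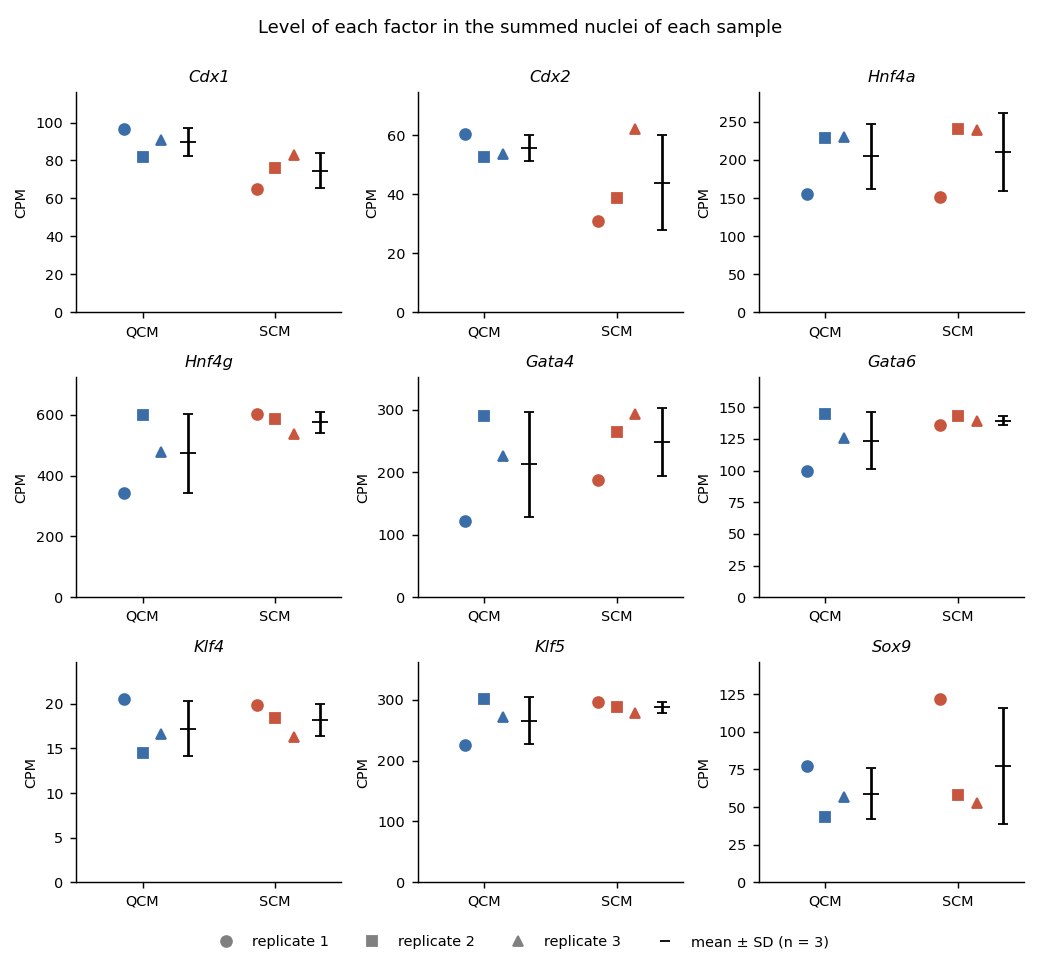
Level of each factor (CPM, y axis from 0) in the summed nuclei of each sample exposed to QCM (blue) or SCM (red). Symbols give the replicate number and black bars the mean ± SD over 3 samples. The media overlap for all 9 factors, QCM replicate 1 is the lowest sample for Hnf4g, Gata4, Gata6 and Klf5, and SCM replicate 1 is the highest for Sox9.

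The CDX pair had the lowest estimates in SCM among the 9. For Cdx1 the levels of replicates 1, 2 and 3 were 96.5, 81.9 and 90.7 CPM with QCM and 64.8, 76.0 and 82.9 CPM with SCM, and all levels of samples are given in this order. The SCM sample lay below the QCM sample of the same number in 3 of 3 numbers, but SCM replicate 3 lay above QCM replicate 2. The numbers were not taken to pair the samples. The means were 89.7 ± 7.36 CPM in QCM and 74.6 ± 9.14 CPM in SCM (SD, n = 3), and edgeR put the log2 ratio, SCM over QCM, at -0.44 ± 0.21 (SE, 95% interval -0.92 to 0.05, edgeR adjusted p = 0.927). Without QCM replicate 1 it was -0.24 and without SCM replicate 1 it was -0.33. Of all genes tested, 18.5% had a lower log2 ratio than Cdx1.

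Cdx2, the homeobox factor that holds intestinal against gastric fate, measured 60.6, 52.8 and 53.6 CPM in QCM and 30.9, 38.9 and 62.1 CPM in SCM. SCM replicates 1 and 2 were under every QCM sample and SCM replicate 3 was over every QCM sample. The means were 55.7 ± 4.32 and 44.0 ± 16.2 CPM, and the log2 ratio was -0.49 ± 0.30 (95% interval -1.19 to 0.20, edgeR adjusted p = 0.929). Without SCM replicate 3 the log2 ratio was -0.89, without SCM replicate 1 it was -0.29 and without QCM replicate 1 it was -0.28, and none of these was called. Leaving out nuclei that share a barcode with another library gave -0.45 for Cdx1 and -0.48 for Cdx2.

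The share of UMIs from 96 ribosomal protein genes moved with the level of Cdx1 between samples, and less closely with that of Cdx2. The QCM samples had shares of 14.1%, 4.93% and 10.3%, and the SCM samples 4.16%, 2.62% and 7.25%. Ordered by this share, the samples fell in the same order as by Cdx1 except for SCM replicates 1 and 2, which changed places. For Cdx2, SCM replicate 3 had the highest level (62.1 CPM) with a share below those of QCM replicates 1 and 3. With the share as a covariate, the log2 ratio was -0.10 for Cdx1 and -0.075 for Cdx2. The share was itself lower in each SCM sample than in the QCM sample of the same number, but the media overlapped. SCM replicate 3 (7.25%) lay above QCM replicate 2 (4.93%). With 6 samples, and shares that went partly with the medium, the parts of the share and of the medium were not told apart. Over 13 clusters the mean level of Cdx2 followed the mean ribosomal share with a Pearson r of 0.72 and that of Cdx1 with 0.47, as a description of clusters that share libraries and depth.

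The levels of the HNF4 pair overlapped widely. Hnf4a measured 155, 229 and 230.0 CPM in QCM and 151, 240.5 and 239.6 CPM in SCM. Replicate 1 was the lowest sample of each medium, and the other 4 samples lay between 229 and 240.5 CPM. Its log2 ratio was -0.097 ± 0.24 (95% interval -0.65 to 0.46, edgeR adjusted p = 0.968), and it was 0.040 when libraries were scaled by total UMIs alone. Hnf4g, the paralog that binds the same motif as Hnf4a, measured 341, 600.1 and 478 CPM in QCM and 602, 587 and 536 CPM in SCM. The low value of QCM replicate 1 set the mean of 473 ± 129 CPM against 575 ± 34.7 CPM in SCM, and this sample was the lowest of the 6 in 9 of the 9 clusters that held at least 10 nuclei of every sample. QCM replicate 1 also had the most UMIs per nucleus, with a median of 8260 against 1578 to 3156.5 in the other samples, and the part of this in the result was not tested. The log2 ratio was 0.14 ± 0.21 (95% interval -0.34 to 0.63, edgeR adjusted p = 0.936), and 0.053 without QCM replicate 1.

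The GATA pair had log2 ratios near 0. Gata4, the zinc finger factor of the proximal small intestine, measured 122, 289 and 226 CPM in QCM and 188, 263 and 293 CPM in SCM. QCM replicate 1 was again the lowest, in all nuclei and in 9 of 9 clusters. Its log2 ratio of 0.11 ± 0.29 (95% interval -0.55 to 0.78, edgeR adjusted p = 0.969) was -0.080 without QCM replicate 1. Gata6 measured 100.1, 145 and 126 CPM in QCM and 136, 143 and 139 CPM in SCM. The 3 SCM samples lay inside the range of the QCM samples, and the log2 ratio was 0.029 ± 0.15 (95% interval -0.33 to 0.38, edgeR adjusted p = 0.988).

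The KLF pair did not differ beyond the spread of the samples, with a wider interval for Klf4, the member with the fewest UMIs. Klf4 measured 20.5, 14.5 and 16.6 CPM in QCM and 19.9, 18.5 and 16.3 CPM in SCM, and its log2 ratio was -0.12 ± 0.25 (95% interval -0.71 to 0.47, edgeR adjusted p = 0.957). Klf5 measured 225, 301 and 272 CPM in QCM and 297, 288 and 278 CPM in SCM, and its log2 ratio was -0.039 ± 0.16 (95% interval -0.42 to 0.34, edgeR adjusted p = 0.983). The means of both were higher in SCM (18.2 against 17.2 CPM and 288 against 266 CPM) although the fitted ratios were under 0, since the fit scales libraries by TMM. With total UMIs alone as the scale the median gene moved to 0.14, and the log2 ratio was 0.074 for Klf4 and 0.11 for Klf5. Without the 6% deepest nuclei of each sample Klf4 was at -0.52 ± 0.31 (edgeR adjusted p = 0.819).

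Sox9, the SOX factor of crypt progenitors and Paneth cells, measured 77.2, 43.4 and 56.4 CPM in QCM and 122, 58.0 and 52.6 CPM in SCM. SCM replicate 1 was the highest sample, and the other SCM samples lay inside the QCM range. SCM replicate 1 was also the highest of 6 samples in 8 of 9 clusters, and without its nuclei of cluster 14 it measured 113 CPM. The log2 ratio of 0.17 ± 0.39 (95% interval -0.74 to 1.07, edgeR adjusted p = 0.965) was -0.28 without SCM replicate 1, 0.55 without QCM replicate 1 and 0.73 with the ribosomal share as a covariate.

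**Figure D2:**
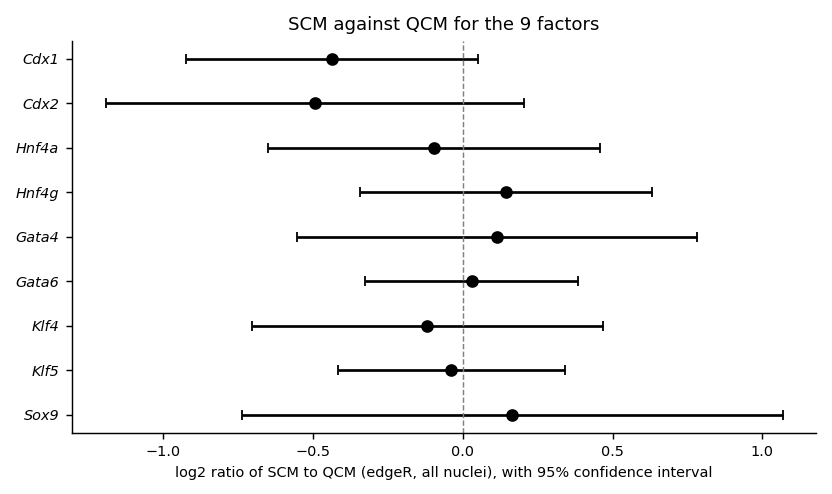
Log2 ratio of SCM to QCM for each factor in all nuclei (points, edgeR with TMM scaling) with the 95% confidence interval (bars, 3 samples per medium). All 9 intervals include 0, and those of Cdx1 and Cdx2 reach to -0.92 and -1.19.

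Clusters were compared next to ask whether a factor marked a kind of nucleus. The deposited clusters carry numbers and no names. In 7 of them 3 or more markers of a type reached 5 CPM and a 2-fold excess over all other nuclei. Cluster 1 was left unnamed because it passed for absorptive and secretory types together, with 6 of 12 enterocyte, 4 of 8 Paneth and 3 of 10 goblet markers, and the other 6 were named: cluster 6 was goblet and Paneth-like (9 of 10 goblet and 4 of 8 Paneth markers), cluster 7 fetal-like (8 of 12), cluster 8 enterocyte-like (9 of 12), clusters 9 and 10 enteroendocrine-like (14 and 8 of 14) and cluster 11 tuft-like (7 of 10). Levels were averaged over samples with at least 10 nuclei in a cluster, and 13 clusters had at least 5 such samples. The clusters were made from the same nuclei, so their levels are a description with no test.

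Klf4 had the widest range of the 9 factors. Its highest mean was 53.2 ± 10.3 CPM in the goblet and Paneth-like cluster 6 (n = 6) and its lowest 7.20 ± 3.99 CPM in cluster 0 (n = 6), 7.39-fold apart. SCM replicate 1 had 0 UMIs of Klf4 in its 19 nuclei of cluster 0, which allows up to 26.9 CPM (3 UMIs, counting error only), and without this library the clusters were 5.84-fold apart. Klf4 was the only member at least 2-fold above the other nuclei in any of the 13 clusters. Of 8042 genes with a mean of at least 20 CPM over these clusters, 5.78% were so in at least 1 cluster and 1.07% in cluster 6, but Klf4, with a mean of 20.7 CPM, reached this floor only through cluster 6, so nothing is read from these shares. In cluster 6 it measured 42.9, 49.6 and 50.2 CPM in QCM and 66.8, 44.6 and 65.2 CPM in SCM, from 20 to 103 UMIs a sample. Every sample had more Klf4 there than in its other nuclei, 3.29-fold on average, and 5.36-fold when the 6% deepest nuclei of each sample were left out.

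The enterocyte-like cluster 8 (33.3 ± 15.1 CPM) and the fetal-like cluster 7 (31.4 ± 6.82 CPM) followed, and Klf4 was above the other nuclei in 6 of 6 samples in both. The level in cluster 6 was above that in cluster 8 in 6 of 6 samples, by more than the spread of that difference (19.9 ± 15.7 CPM), and no other neighbours in the order of Klf4 were set apart by more than their spread. Clusters 2 and 0, at the low end, were under the other nuclei in 6 of 6 samples.

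**Figure D3:**
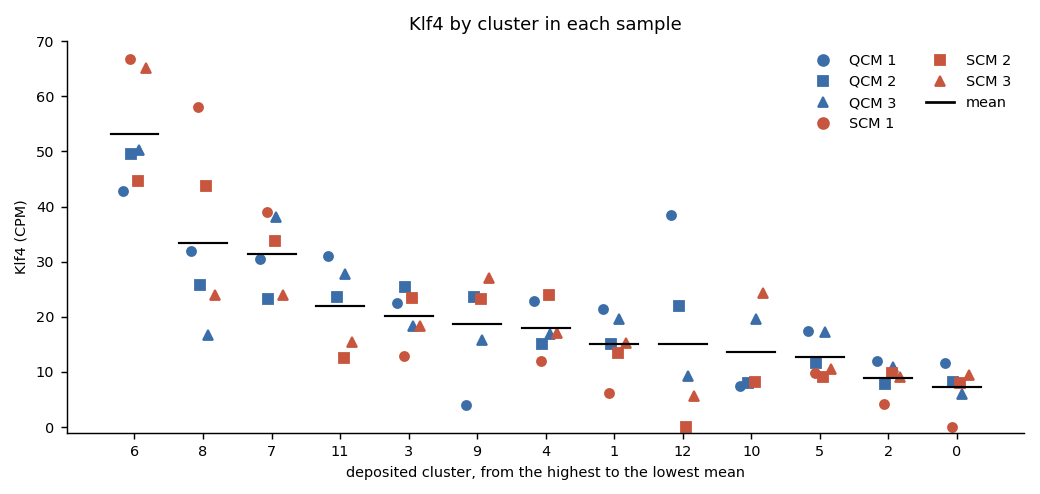
Klf4 (CPM, y axis) in each sample with at least 10 nuclei of the cluster (points, blue QCM, red SCM, symbol by replicate), with the mean over samples as a black line. Clusters run from the highest mean, 53.2 CPM in cluster 6, to the lowest, 7.20 CPM in cluster 0, and in all 6 samples the level is higher in cluster 6 than in cluster 8.

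Hnf4a and Klf5 were the most even. Among the 13 clusters, the highest mean of Hnf4a, 236 ± 44.4 CPM in the enteroendocrine-like cluster 10 (n = 5), was 1.23-fold its lowest, 193 ± 40.5 CPM in the fetal-like cluster 7 (n = 6), and 0.634% of the 8042 genes had a smaller range. Klf5 ran from 302 ± 34.4 CPM in cluster 5 (n = 6) to 243 ± 20.3 CPM in the enteroendocrine-like cluster 9 (n = 5). Its range of 1.24-fold was wider than that of 0.895% of genes. Counting error widens the range of genes near 20 CPM, and Hnf4a and Klf5 averaged 211 and 272 CPM. Genes of like level were not compared. The mean of cluster 10 does not count SCM replicate 1, the lowest sample of Hnf4a. Over the 5 shared samples the difference of cluster 10 from the enterocyte-like cluster 8 was -9.14 ± 46.7 CPM. Hnf4a was above the other nuclei in 6 of 6 samples in cluster 8 (1.12-fold). No neighbours in the order of Hnf4a were set apart by more than their spread. For Klf5 a step of 28.8 ± 14.4 CPM lay between clusters 8 and 10 (5 of 5 samples).

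Hnf4g ranged 1.63-fold, from 626 ± 83.2 CPM in the enterocyte-like cluster 8 (n = 6) to 384 ± 124 CPM in cluster 1 (n = 6), which had the highest mean ribosomal share (11.0%) and markers of several cell types. It was above the other nuclei in 6 of 6 samples in clusters 8, 6 and 2 and below them in 6 of 6 in clusters 7 and 1. Over the 13 clusters its mean level and the mean ribosomal share had a Pearson r of -0.72, opposite in sign to Cdx2.

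Gata4 ranged 1.62-fold, from 272 ± 57.2 CPM in cluster 0 to 168 ± 36.1 CPM in the fetal-like cluster 7 (n = 6 each), and Gata6 1.42-fold, from 147 ± 17.7 CPM in cluster 2 to 104 ± 12.6 CPM in cluster 7. The GATA factors had like patterns, with a Pearson r of 0.79 over the 13 clusters, the highest between any of the 9 members. The correlation is over clusters that share samples and is given as a description.

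The range was 1.45-fold for Cdx1, from 95.3 ± 15.3 CPM in the tuft-like cluster 11 (n = 5) to 65.5 ± 11.7 CPM in the enterocyte-like cluster 8 (n = 6), and 1.61-fold for Cdx2, from 67.9 ± 24.8 CPM in cluster 12 (n = 5) to 42.2 ± 18.4 CPM in cluster 5 (n = 6). SCM replicate 1 had 1 UMI of Cdx2 in its 20 nuclei of cluster 5 (9.76 CPM), and the mean of cluster 12 does not count this sample. For Cdx1 the mean of cluster 11 does not count SCM replicate 1, its lowest sample. Over the 5 shared samples the difference of cluster 11 from cluster 1 was 2.52 ± 10.2 CPM. Cdx1 was 1.14-fold the other nuclei in cluster 1 and 1.11-fold in cluster 11, and it was below them in 6 of 6 samples in cluster 8. No neighbours in the order of Cdx1 or Cdx2 were set apart by more than their spread. Sox9 ranged 1.74-fold, close to the median gene (1.70-fold), from 78.4 ± 44.7 CPM in cluster 1 (n = 6) to 45.0 ± 15.3 CPM in the enterocyte-like cluster 8 (n = 6, below the other nuclei in 6 of 6 samples). In cluster 1, SCM replicate 1 was the highest sample, at 167 CPM, and the mean of cluster 11 does not count it. Over the 5 shared samples the difference of cluster 1 from cluster 11 was -13.5 ± 12.6 CPM. Cluster 1 was the higher of these in 1 of 5 samples. Sox9 had its highest ratio to the other nuclei in the tuft-like cluster 11 (1.29-fold, higher in 4 of 5 samples).

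Over all 9 members, 99 pairs of neighbouring clusters in the order of levels could be compared in at least 5 samples. In 5 of them the cluster with the higher mean lay above the next by more than the SD within samples. Clusters 1 and 11 of Sox9 went the other way, at -13.5 ± 12.6 CPM over 5 samples. The order of most clusters is thus within the spread of the samples.

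**Figure D4:**
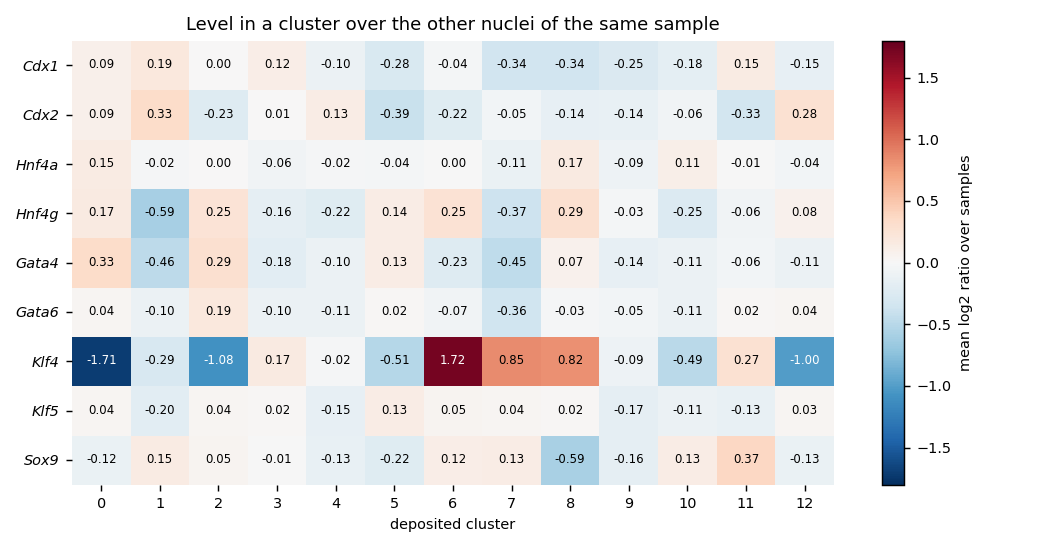
Mean log2 ratio of the level in a cluster to the level in the rest of the sample, over 5 or 6 samples, for each factor (rows) and the 13 clusters with at least 5 samples (columns). Klf4 spans the colour scale, from -1.71 in cluster 0, where SCM replicate 1 has 0 UMIs, to 1.72 in cluster 6, and the row of Hnf4a stays between -0.11 and 0.17.

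The fetal-like cluster 7 was looked at more closely because its nuclei carry markers of fetal and regenerating epithelium, among them Ly6a, Clu and Anxa1. It was the cluster with the lowest mean of Hnf4a, Gata4 and Gata6 among the 13. Set against the rest of each sample, Gata4 was 0.731-fold, Hnf4g 0.773-fold and Gata6 0.778-fold, each lower in 6 of 6 samples, and Cdx1 0.791-fold, lower in 5 of 6. Klf4 was 1.81-fold, higher in 6 of 6 samples. Cdx2 (0.967-fold), Hnf4a (0.924-fold), Klf5 (1.03-fold) and Sox9 (1.10-fold) differed from the other nuclei by less than their SD over samples. The low Gata4 and Hnf4g were not particular to cluster 7. In cluster 1 they were 0.725-fold and 0.663-fold the other nuclei, each lower in 6 of 6 samples, while Gata6 was 0.933-fold.

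Whether the medium changed the contrast of cluster 7 with the other nuclei was tested next. The two-sided exact permutation test over the 3 and 3 samples cannot give a p under 0.1. The 9 members gave exact p-values from 0.1 to 1. The lowest was that of Cdx2, whose log2 ratio of cluster 7 to the other nuclei was 0.11 ± 0.17 in QCM and -0.20 ± 0.11 in SCM (SD, n = 3), a difference of -0.31 (exact p = 0.1, unadjusted over 9 tests). For Hnf4g the difference was -0.28 (exact p = 0.3), and it was -0.13 without SCM replicate 1 and -0.46 without SCM replicate 3. Without nuclei that share a barcode the difference for Cdx2 was -0.55 (exact p = 0.2). SCM replicate 1 held 17 nuclei of this cluster and 4 UMIs of Cdx2 in them.

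Within clusters the media were compared in 13 of the 15, 9 with all 6 samples and 4 with 5, and 113 pairs of a member and a cluster could be tested. None was called by edgeR at an adjusted p under 0.05, as for 0% of all 130109 pairs of a gene and a cluster, and the smallest adjusted p was 0.813. At an unadjusted p under 0.05 there were 3 of 113 pairs, against 5.76% of all pairs, and all 3 were Cdx2. Without QCM replicate 1 there were 0 of 111 pairs, beside 2686 of 129093 over all genes. Without QCM replicate 2 there were 11 of 113, beside 16794 of 134268 over all genes. The share of 3 in 113 is below the background and is no result about the members.

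The 3 pairs were Cdx2 in the tuft-like cluster 11, the fetal-like cluster 7 and the mixed cluster 1. In cluster 11 Cdx2 measured 71.7, 50.4 and 58.9 CPM in QCM and 16.6 and 35.8 CPM in SCM replicates 2 and 3, from 4 and 7 UMIs, for which the fit gave a log2 ratio of -1.43 ± 0.54 (adjusted p = 0.813 by edgeR). In this cluster 4.19% of all genes had an unadjusted p under 0.05. SCM replicate 1 had 4 nuclei there and was not in the fit. In cluster 7 it measured 65.2, 50.7 and 64.4 CPM in QCM and 26.0, 37.0 and 51.8 CPM in SCM, so that the media overlapped, and the fit gave a log2 ratio of -0.69 ± 0.28 (adjusted p = 0.813 by edgeR), beside 11.9% of all genes at an unadjusted p under 0.05.

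In cluster 1 Cdx2 measured 76.2, 62.2 and 66.4 CPM in QCM and 43.2, 48.2 and 61.1 CPM in SCM, with no overlap, and the fit gave a log2 ratio of -0.67 ± 0.30 (adjusted p = 0.813 by edgeR). Here 6.62% of all genes passed the unadjusted threshold. Without QCM replicate 1 the 3 log2 ratios were -1.16, -0.53 and -0.40, and with the ribosomal share as a covariate they were -0.88, -0.19 and -0.14.

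Cdx1 had a lower estimate in SCM in 13 of 13 clusters, as did 20.6% of the 3774 genes tested in all 13, with a median log2 ratio of -0.39 and a range from -0.91 in cluster 12 to -0.089 in cluster 10. Cdx2 was lower in 10 of 13, with a median of -0.38, and 31% of those genes were lower in 10 or more clusters. Hnf4g and Gata4 had a higher estimate in 12 of 13 clusters, with medians of 0.22 and 0.20, and 29.6% of those genes were higher in 12 or more. With the ribosomal share of each sample and cluster as a covariate the estimate was lower in 7 of 13 clusters for Cdx1 and 6 of 13 for Cdx2. The clusters of a sample share its library and are not independent.

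**Figure D5:**
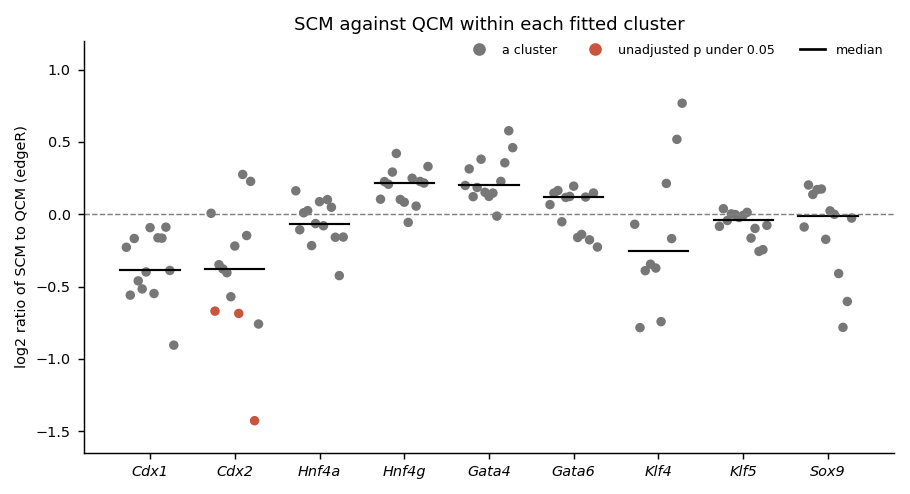
Log2 ratio of SCM to QCM (edgeR) for each factor within each fitted cluster (points), with the median over clusters as a black line. Red points have an unadjusted p under 0.05, and all 3 of them are Cdx2. The points of Cdx1 lie under 0 in 13 of 13 clusters, and none of the 113 points was called after adjustment.

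Paralogs of one family bind the same motif, so the balance within each family was compared as the log2 ratio of their CPM in a sample, which does not depend on the scale of the library. For Cdx1 to Cdx2 it was 0.67, 0.63 and 0.76 in QCM and 1.07, 0.97 and 0.42 in SCM (difference 0.13, exact permutation p = 0.6). Without SCM replicate 1 this difference was 0.0042 and without SCM replicate 3 it was 0.33. For Hnf4g to Hnf4a the difference of SCM from QCM was 0.29 (exact p = 0.4), and it was 0.030 without SCM replicate 1 and 0.45 without SCM replicate 3. The difference was 0.099 for Gata4 to Gata6 (exact p = 0.6) and -0.032 for Klf4 to Klf5 (exact p = 0.9). The media overlapped in all 4, and p-values are unadjusted over the 4 tests. Between clusters the balance of Klf4 to Klf5 had the widest range, from a ratio of CPM of 0.0298 in cluster 0 (5 samples with Klf4) to 0.184 in cluster 6 (6 samples).

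For each member, the genes with the most similar level over the 13 clusters were found among genes of at least 20 CPM, as a Pearson correlation of log2 levels. They were Tspan13 (0.88) for Klf4, Pde8b and Immp2l (0.95 each) for Gata4, Prlr (0.90) and Gm12068 (0.92) for Gata6, and Ogt (0.97) and Ppip5k1 (0.96) for Hnf4g. For Cdx2 they were Trappc5 (0.95) and Mrps12 (0.91), for Cdx1 Cks1b (0.89) and Clca3b (0.88), for Sox9 Lig1 (0.88), for Klf5 Lrrc51 (0.88) and Carf (0.87), and for Hnf4a Tmem161a (0.80) and Faah (0.76). With 13 points and 8042 genes to choose from, the highest correlation can be high by selection alone. The highest correlations of other genes were not worked out.

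The factors that work with the 9 members were read from a list of 26. Of its 23 genes that were tested, 0 rose and 0 fell (edgeR, adjusted p under 0.05), 11 had a higher estimate in SCM and 12 a lower one, the median log2 ratio was -0.021, and 1 of 23 had an unadjusted p under 0.05, against 4.55% of all genes. This was Elf3, an epithelial ETS factor named here after its value was seen, at -0.55 ± 0.24 (edgeR adjusted p = 0.927), and at -0.33 without QCM replicate 1. The highest estimates were those of Onecut2 (log2 ratio 0.49 ± 0.33) and of Gata5, the third GATA factor of the gut (0.34 ± 0.25), and the lowest those of Creb3l3, a factor of fat metabolism (-1.02 ± 0.55), and Maf (-0.56 ± 0.76). Onecut2 measured 336 CPM in SCM replicate 1 and 128 to 166 CPM in the other 5 samples, and its log2 ratio was 0.053 without that library. Without QCM replicate 1 the log2 ratio was -0.19 for Creb3l3 and 0.41 for Maf, and the median of the list was 0.12. Maf was at -1.34 without SCM replicate 1, and Gata5 at 0.077 without SCM replicate 2.

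Brush border and enterocyte genes are known targets of CDX2 and HNF4. Of 26 tested, 0 rose and 0 fell, 3 had a higher estimate in SCM and 23 a lower one, 5 had an unadjusted p under 0.05, and the median log2 ratio was -0.83, beside -0.039 for the 9 factors and -0.012 for all genes, of which 51.4% were lower and 4.55% had an unadjusted p under 0.05. These values moved with single libraries. Without QCM replicate 1, 9 were higher and 17 lower, 1 had an unadjusted p under 0.05 and the median was -0.21. Without QCM replicate 2 the unadjusted count was 15 and the median -1.06, without SCM replicate 1 they were 0 and -0.57, and without SCM replicate 2 they were 2 and -0.90. The 5 genes, named after their values were seen, were Apoc3, Apoa4, Fabp2, Treh and Guca2a. The lowest were Apoc3 (-3.47 ± 1.22) and Apoa4 (-2.99 ± 1.17), apolipoproteins of absorbed fat, and the highest Heph, an iron oxidase (0.34 ± 0.15), and Apob (0.20 ± 0.50), which was at 0.85 without QCM replicate 1 and at -0.37 without SCM replicate 2. Apoa4 measured 703, 26.3 and 67.9 CPM in QCM and 25.8, 44.5 and 54.0 CPM in SCM, so that QCM replicate 1 carried its QCM mean. Apoc3 measured 113, 3.91 and 15.2 CPM in QCM and 2.95, 2.89 and 8.17 CPM in SCM. Without QCM replicate 1 the log2 ratio was -0.21 for Apoa4 and -1.01 for Apoc3. The same library had the highest ribosomal share. Beside these genes, marker sums of other cell types were as follows. The 10 goblet markers summed to 875 to 2052 CPM in QCM and 568 to 897 CPM in SCM, 8 Paneth markers to 536 to 2676 and 343 to 585 CPM, 14 enteroendocrine markers to 251 to 455 and 113 to 263 CPM, and 12 fetal markers to 109 to 203 and 285 to 835 CPM. QCM replicate 1 set the top of the QCM goblet and Paneth ranges. QCM replicates 2 and 3 summed to 875 and 1167 CPM of goblet markers and to 637 and 536 CPM of Paneth markers. The 9 stem markers summed to 2225 to 4077.5 CPM in QCM and 3049 to 4725 CPM in SCM. The 12 dividing markers summed to 823 to 1145 and 918 to 1084 CPM, and the 10 tuft markers to 15.7 to 31.9 and 16.5 to 26.6 CPM. The part of these sums in the result was not tested.

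Genes of stomach and foregut and genes of ileum and colon were read as a check of regional identity. Of 12 stomach and foregut genes, 11 were in the files and 6 passed the filter, 0 rose and 0 fell, with 3 estimates up and 3 down. Anxa10 had the highest log2 ratio (1.08 ± 0.60), with 26.3, 6.42 and 13.6 CPM in QCM and 37.1, 60.8 and 19.7 CPM in SCM (1.91 without QCM replicate 1), and Cldn18 the next (0.25 ± 0.62), while Gkn3 (-1.48 ± 0.72) and Tff1 (-0.46 ± 0.92) had the lowest. Leaving out SCM replicate 2 put Anxa10 at 0.60, and leaving out QCM replicate 1 put Gkn3 at -0.78. Cldn18 was at -0.042 when QCM replicate 2 was left out and at 1.018 when QCM replicate 3 was, and Tff1 was at 0.12 without QCM replicate 3 and at -1.38 without SCM replicate 1. The mean of Anxa10 was highest in the fetal-like cluster 7 (180.4 CPM). Of 10 ileum and colon genes, 9 were in the files and 4 passed the filter, 0 rose and 0 fell, and the log2 ratio was -0.36 ± 0.56 for Muc3, -0.18 ± 0.27 for Osr2 and 0.37 ± 0.35 for Slc10a2. Without QCM replicate 1 these were 0.27, 0.021 and 0.56. Without SCM replicate 1 Osr2 was at -0.38, and without SCM replicate 2 Muc3 was at -0.80 and Slc10a2 at 0.086.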

How the data were processed

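Nuclei of frozen organoids were sequenced with a droplet kit that reads 3′ ends. Per the submitters' processing notes and the study's methods, the authors counted reads with Cell Ranger 2.1.1 on mm10. They dropped nuclei that were low outliers of their sample in depth or in detected features, or high outliers in mitochondrial fraction. The rest were clustered after joining the samples. The deposited values are raw UMI counts per gene and nucleus, and the authors' table gives the cluster number and the mitochondrial fraction of each nucleus.

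All 38154 nuclei were used. Sums of the UMI counts over the nuclei of a sample, or of a cluster in a sample where it had at least 10 nuclei, were tested with the edgeR 4.0.16 quasi-likelihood test in R 4.3.3 (limma 3.58.1, DESeq2 1.42.0) with TMM scaling, filterByExpr and Benjamini-Hochberg adjustment over all genes, or all gene and cluster pairs, at a threshold of 0.05. Exact permutation tests were run in Python 3.11.15 with scipy 1.17.1. Ratios between clusters used log2 of CPM + 1. Symbols were matched for 31244 of 31319 genes. Doublets were not called, and leaving out the 6% deepest nuclei was an alternative. Mitochondrial genes were not analysed here.

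The members, lists, tests and named genes were chosen with earlier results of these data known. Named genes were the 9 members, for each member the 2 genes with the most similar level, of each list the 2 genes with the highest and the 2 with the lowest log2 ratio, and pairs of a member and a cluster with an unadjusted p under 0.05, and some genes that this rule names are not reported here. The limits for naming clusters were chosen with the clusters in view.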

Additional observations from a re-analysis of the deposited data

How the results depend on the processing

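No member was called in any of 17 alternatives in all nuclei or 16 within clusters. Cdx1 and Cdx2 had a lower estimate in SCM in all 17, from -0.57 to -0.10 and from -0.89 to -0.075, where the values nearest 0 came with the ribosomal share as a covariate. DESeq2 called 28 genes in all nuclei (0.167%) and 113 pairs of a gene and a cluster, no filter on low counts gave 2984 pairs, and the other tools and scalings 0. The number of members with a higher estimate in SCM was 7 with total UMIs alone as the scale or clusters weighted equally, 2 with the ribosomal share as a covariate, and 2 (without SCM replicate 3) to 4 with 1 library left out. The sign turned for Hnf4a with total UMIs alone (0.040), replicates 2 and 3 alone (0.023) and equal clusters (0.071), for Klf4 in the same settings (0.074, 0.11 and 0.053) and for Klf5 with total UMIs alone (0.11), equal clusters (0.085) and voom with quantile normalization (0.0064). With the ribosomal share as a covariate it turned for Hnf4g (-0.055), Gata4 (-0.11), Gata6 (-0.029) and Klf4 (0.28), and the cause was not tested.

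Leaving out 1 library gave log2 ratios from -0.24 to 0.11 for Hnf4a, -0.080 to 0.32 for Gata4, -0.011 to 0.080 for Gata6, -0.29 to 0.18 for Klf4 and -0.28 to 0.55 for Sox9. The balance ran from -0.11 to 0.27 for Gata4 to Gata6 and from -0.24 to 0.22 for Klf4 to Klf5. The difference between the media of cluster 7 against the other nuclei ran from -0.31 to 0.056 for Cdx1, -0.11 to 0.061 for Hnf4a, -0.23 to 0.10 for Gata4, -0.058 to 0.27 for Klf4, -0.076 to 0.12 for Klf5 and -0.32 to 0.29 for Sox9. Without nuclei that share a barcode, an alternative chosen after seeing the data, it was 0.17 for Hnf4a and 0.13 for Sox9. SCM replicate 1 then had 8 nuclei of cluster 7 left. Without SCM replicate 2 or 3 fewer clusters had 2 samples per medium, and 81 pairs were tested.

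With the replicate number as a block, 0 genes were called in all nuclei and 110 pairs within clusters, no member among them. Same-numbered samples deviated together for replicates 1 and 2 (correlations of 0.36 and 0.46) and not for replicate 3 (-0.088), so the numbers were not taken to pair the samples. With 3 samples per medium the 95% intervals of the log2 ratio ran from -0.33 to 0.38 for Gata6, the narrowest, and from -0.74 to 1.07 for Sox9, the widest, so these data do not show that the members were alike in the media.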

Other observations

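Cluster 14 held 92 nuclei with a median of 39432.5 UMIs, against medians of 1571.5 to 2557 in the other clusters, and 3 samples, QCM replicates 1 and 2 and SCM replicate 2, had at least 10 of them. In these samples Hnf4g (798 ± 92.7 CPM, 1.66-fold the other nuclei), Gata4 (320.4 ± 79.4 CPM, 1.53-fold), Klf5 (348 ± 19.9 CPM, 1.31-fold) and Gata6 (161 ± 22.9 CPM, 1.26-fold) had their highest mean of any cluster and lay above the other nuclei in 3 of 3. Cdx2 (33.3 ± 11.6 CPM, 0.639-fold) and Klf4 (10.6 ± 3.90 CPM, 0.59-fold) lay below them in 3 of 3, and Cdx2 had its lowest mean there. SCM replicate 1 was not counted, since it had 7 such nuclei, although they held 1310315 UMIs, and several members went the other way in it. Its nuclei of cluster 14 measured 499 CPM of Hnf4g, 134 of Gata6, 38.9 of Cdx2 and 23.7 of Klf4, against 651, 137, 27.2 and 18.1 CPM in its other nuclei. These nuclei also had the lowest ribosomal share of any cluster (3.63% of their UMIs).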
